A study of Danio rerio with 121 samples.

Results

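Followed here were 10 genes known from the inner ear matrix or from the sensory hair cells that lie under it. These were *oc90*, *stm*, *otomp*, *tecta*, *tectb*, *otog*, *otogl*, *pvalb9*, *myo7aa*, and *otofb*. The levels are of whole animals, and how much of each came from the ear was not tested. The genes were chosen by name, as rows of the deposited count table with these symbols. The rule used none of their values, though earlier results of these data were known. All 10 were present among the 24801 gene symbols of the table, and all 10 passed the filter of at least 1 count in at least 8 libraries of every model fitted here.

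Whole zebrafish embryos and larvae of the RW (RIKEN wild-type) strain, without treatment, were sequenced by Lasy-Seq, a 3′ RNA-Seq method in which each RNA sample is indexed at reverse transcription and then pooled. The libraries cover 9 stages, given in somites (ss) or hours post-fertilization (hpf), and fall into 16 groups. Set 1 holds 81 libraries listed under 2020. Of these, libraries with an S in their name, a mark that the labels do not explain, are of 6 ss (8 libraries), 10 ss (8), 15 ss (5), and 96 hpf (8), and libraries without it, called plain here, are of 6 ss (8), 15 ss (4), 20 ss (8), 24 hpf (8), 48 hpf (8), 72 hpf (8), and 96 hpf (8). Set 2 holds 40 libraries listed under 2021 and named DrRyu in the labels, 8 each at 20 ss and at 24, 32, 48, and 72 hpf. How many embryos went into each library is not settled, since the labels name a single embryo, the methods of the study name pools, and a deposited sample table lists a used number, not described further, of 1 to 50 for set 1 and none for set 2. The used number is 50 in plain libraries of 6 ss, 15 ss, 24 hpf, 48 hpf, and 72 hpf, 10 at 20 ss, and 5 at 96 hpf, and in S libraries it is 25, 20, 15, and 1 at 6 ss, 10 ss, 15 ss, and 96 hpf, so where it differs between groups compared here it cannot be told apart from them. Each library was treated as 1 replicate, and p-values therefore measure the spread between libraries, which may be technical.

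Library totals ran from 866854 to 21646478 counts, with a median of 2884498 in set 1 and 4956971 in set 2. Only 1 library, S library 4 of 96 hpf, had less than the median of its set divided by 3. As a check of the stage labels, the summed level of the segmentation and tailbud genes *her1*, *her7*, *tbxta*, *tbx16*, and *msgn1* averaged 5.02 CPM (counts scaled to the library size) in plain libraries at 96 hpf and 570 CPM at 6 ss. Of the 4 late genes in the table, *ela2l*, *cpa5*, and *rho* were higher at 96 hpf and *fabp2* was lower (edgeR, adjusted p = 0.00421). The RNA came from whole animals, so fewer cells of a type and less RNA per cell cannot be told apart.

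In the otic vesicle of the zebrafish, hair cells carry crystals of calcium carbonate, the otoliths, which transmit gravity and sound. A protein matrix nucleates and shapes the crystals, and a fibrous layer with tectorins and otogelins ties them to the sensory epithelium. Deflection of the hair bundle opens transduction channels, and the hair cell then releases transmitter at ribbon synapses. Hair cells with the same machinery also form in the neuromasts of the lateral line.

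Otolith matrix genes came first. *oc90* encodes otoconin 90, a core matrix protein of otoliths in zebrafish and of otoconia in the mouse. In plain libraries its level was 18.0 to 32.6 CPM at 6 ss (median 22.6), 29.2, 30.9, 32.8, and 34.7 CPM in the 4 libraries of 15 ss, and 46.5 to 75.4 CPM at 20 ss (median 57.7). It then lay between 29.2 and 44.0 CPM at 24 hpf (median 36.3), between 0.518 and 4.25 CPM at 48 hpf (median 2.68), between 0 and 2.32 CPM at 72 hpf (median 0.944), and between 0 and 3.61 CPM at 96 hpf, where 5 of 8 libraries had no count. The highest libraries were thus all of 20 ss, and no library of 48 hpf reached the lowest library of 24 hpf.

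The rise and the fall of *oc90* both passed the test. The used number is 10 in plain libraries of 20 ss and 50 in those of 15 ss and 24 hpf. It cannot be told apart from stage in the steps to and from 20 ss. *oc90* was higher at 20 ss, with 59.4 ± 9.35 CPM (SD, n = 8), than at 15 ss, with 31.9 ± 2.37 CPM (SD, n = 4), by a log2 fold change of 0.95 ± 0.25 (SE; edgeR quasi-likelihood test, adjusted p = 0.00374). It was lower at 24 hpf, with 36.8 ± 5.32 CPM, than at 20 ss, at a log2 fold change of -0.69 ± 0.19 (edgeR, adjusted p = 0.00344). At 48 hpf it averaged 2.58 ± 1.37 CPM, a log2 fold change of -3.50 ± 0.24 against 24 hpf (edgeR, adjusted p = 5.24e-26), and in each of these 3 steps the groups did not overlap, as was so for 6.8%, 8.86%, and 16.9% of all genes tested. It fell further at 72 hpf, to 1.13 ± 0.789 CPM, at a log2 fold change of -1.32 ± 0.31 against 48 hpf (edgeR, adjusted p = 5.83e-04). There the libraries overlapped, and the exact permutation test of log2(CPM + 1), two-sided, gave p = 0.0305, or 0.118 after adjustment over the 160 tests of 10 genes in 16 comparisons. With both sets in one fit, the rise to 20 ss and the fall to 24 hpf did not pass, with adjusted p of 0.244 and 0.180, while the fall to 48 hpf did. That fit gives both sets a shared spread. Replicate pairs differed more in DrRyu libraries than in set 1. The chi-square per degree of freedom of their counts, not scaled for depth, was 10.7 to 66.8 against 3.68 to 12.4. Calls gained or lost in that fit may come from the shared spread, which was not tested.

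**Figure D1:**
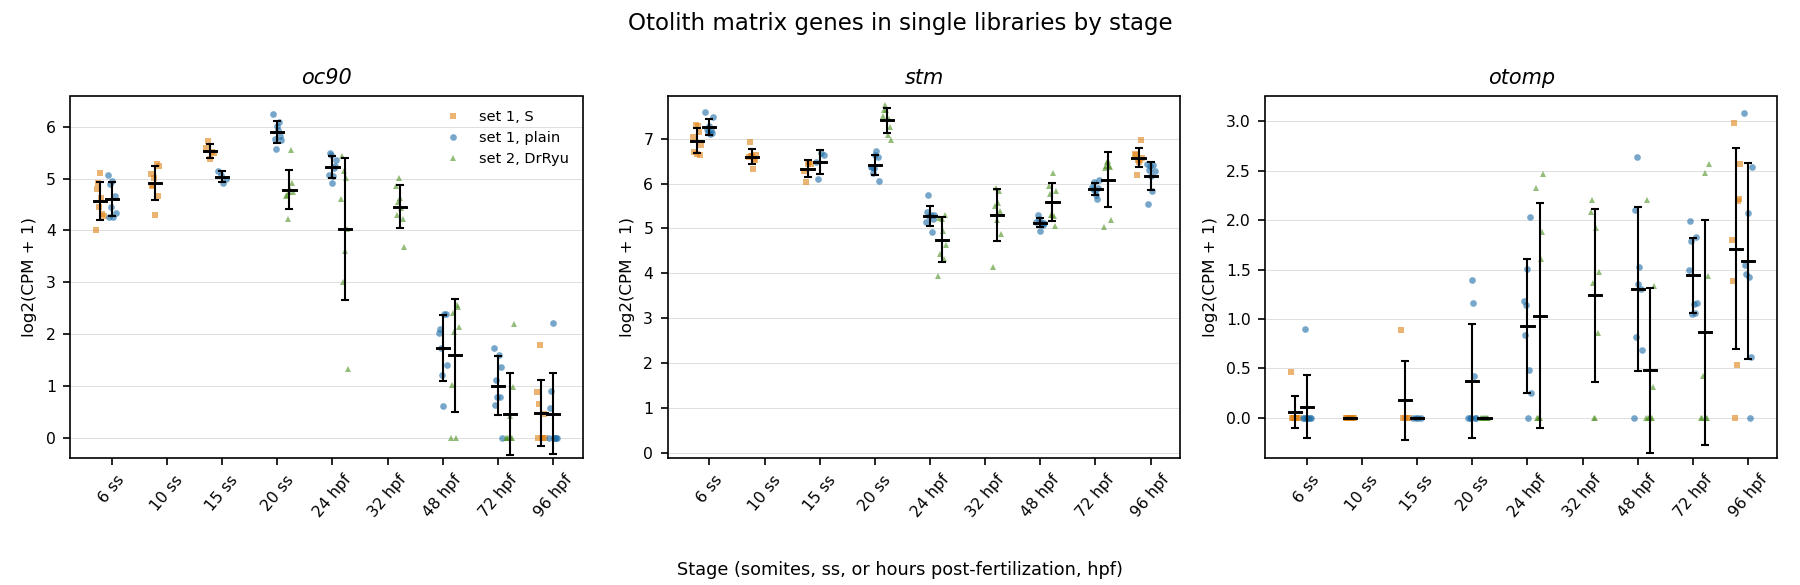
Levels of the otolith matrix genes *oc90*, *stm*, and *otomp* in single libraries, as log2(CPM + 1), against stage; squares are S libraries, circles plain libraries, and triangles DrRyu libraries, with bars for the mean and SD of each group on that scale. *oc90* stood near 2.58 CPM at 48 hpf after 36.8 CPM at 24 hpf in plain libraries, *stm* was lowest at 24 and 48 hpf in plain libraries, and *otomp* had no count at 15 ss in plain libraries, at 10 ss in S libraries, and at 20 ss in DrRyu libraries.

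In DrRyu libraries *oc90* averaged 27.5 ± 8.16, 20.9 ± 14.5, 21.8 ± 6.16, 2.69 ± 2.06, and 0.614 ± 1.25 CPM at 20 ss and at 24, 32, 48, and 72 hpf (SD, n = 8 each). The libraries of 24 hpf ran from 1.51 to 42.6 CPM around a median of 19.4. The step from 32 hpf passed, with a log2 fold change of -2.97 ± 0.55 at 48 hpf against 32 hpf (edgeR, adjusted p = 1.21e-04) and no overlap between groups, as for 2.96% of all genes tested. At 24 hpf against 20 ss the log2 fold change was -0.39 ± 0.49 (edgeR, adjusted p = 0.699). At 72 hpf against 48 hpf it was -1.86 ± 0.63 (edgeR, adjusted p = 0.0646), and this step passed in DESeq2 (0.0297) and with both sets in one fit (0.00499). Of the 33 *oc90* counts at 72 hpf, 27 were in library B8. In S libraries *oc90* averaged 23.3 ± 6.21 CPM at 6 ss, 29.8 ± 6.38 CPM at 10 ss (n = 8 each), and 45.6 ± 4.20 CPM at 15 ss (n = 5). The 5 libraries of 15 ss had 40.5, 44.1, 44.5, 46.9, and 51.8 CPM, all above the highest of 10 ss, 37.7 CPM (no overlap, as for 2.31% of all genes), yet the step did not pass (edgeR, log2 fold change 0.63 ± 0.22, adjusted p = 0.0863) where the exact permutation test gave an adjusted p of 0.0149.

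*stm* encodes Starmaker, an acidic phosphoprotein that sets the shape of the zebrafish otolith. It had counts in every library. In plain libraries *stm* was 135 to 191 CPM at 6 ss (median 146), and 67.2, 87.8, 98.5, and 102 CPM in the 4 libraries of 15 ss. At 24 hpf it was 29.2 to 52.3 CPM (median 38.1), at 48 hpf 29.7 to 38.4 CPM (median 33.8), at 72 hpf 49.4 to 66.1 CPM (median 58.1), and at 96 hpf 45.4 to 85.4 CPM (median 77.3). *stm* was therefore high at the first stage, low at 24 and 48 hpf, and intermediate later.

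The 15 ss libraries had less *stm* than those of 6 ss, 88.9 ± 15.6 CPM (n = 4) against 154 ± 20.4 CPM (n = 8), at a log2 fold change of -0.81 ± 0.13 (edgeR, adjusted p = 9.58e-07). *stm* fell again at 24 hpf, to 38.3 ± 6.60 CPM against 85.1 ± 12.9 CPM at 20 ss, at a log2 fold change of -1.15 ± 0.11 (edgeR, adjusted p = 1.89e-17). It rose at 72 hpf, to 58.1 ± 5.62 CPM against 34.1 ± 2.49 CPM at 48 hpf, at a log2 fold change of 0.79 ± 0.11 (edgeR, adjusted p = 2.07e-09). None of these 3 pairs of groups overlapped, as was so for 4.27%, 8.86%, and 7.17% of all genes tested. The step to 96 hpf, with 72.3 ± 14.4 CPM, did not pass (log2 fold change 0.25 ± 0.11 against 72 hpf; edgeR, adjusted p = 0.111), although it passed under 5 of the alternatives run.

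The DrRyu libraries gave *stm* 172 ± 32.0, 27.4 ± 9.17, 40.9 ± 14.0, 48.9 ± 14.6, and 71.6 ± 23.6 CPM at 20 ss and at 24, 32, 48, and 72 hpf. The fall at 24 hpf against 20 ss had a log2 fold change of -2.62 ± 0.23 (edgeR, adjusted p = 2.18e-13), with at most 38.6 CPM in any 24 hpf library and at least 124 CPM in any 20 ss library (no overlap, as for 3.4% of all genes). The later steps of *stm* in this set, of 0.61 ± 0.22, 0.25 ± 0.22, and 0.56 ± 0.22 on the log2 scale, did not pass, although those at 32 hpf and at 72 hpf did with both sets in one fit (adjusted p of 0.00865 and 0.00706). In S libraries *stm* was lower at 10 ss, with 96.1 ± 11.6 CPM, than at 6 ss, with 125 ± 24.1 CPM (log2 fold change -0.36 ± 0.10; edgeR, adjusted p = 0.0218, or 0.221 with both sets in one fit), and the 5 libraries of 15 ss had 64.8, 76.8, 85.3, 85.7, and 88.0 CPM.

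*otomp* encodes otolith matrix protein 1, which in zebrafish is needed for otolith growth. It was rarely counted at the early stages. No count was seen in the 4 plain libraries of 15 ss, the 8 S libraries of 10 ss, or the 8 DrRyu libraries of 20 ss, and 2 counts in all in the 8 plain libraries of 6 ss. At 20 ss plain libraries 4, 5, and 6 had 1.62, 1.23, and 0.344 CPM, and the others had no count. The plain step from 20 ss to 24 hpf did not pass (log2 fold change 1.37 ± 0.78; edgeR, adjusted p = 0.226). Totals were 5919077 to 9809464 counts at 24 hpf and 1930237 to 3161085 at 20 ss. From 24 hpf *otomp* averaged 1.10 ± 1.01, 1.85 ± 1.69, 1.80 ± 0.761, and 2.67 ± 2.45 CPM at 24, 48, 72, and 96 hpf in plain libraries, with 1 library at 0 at each of 24, 48, and 96 hpf and none at 72 hpf. In DrRyu libraries of 24 hpf, 4 of 8 had no *otomp* count and the other 4 had 2.04, 2.67, 4.01, and 4.54 CPM. Their mean was at least 22.6-fold higher than the floor of 3 counts over the 8 libraries of 20 ss. This step passed in edgeR (adjusted p = 0.00645), but not in the exact permutation test (p = 0.0769, adjusted p = 0.209). At 72 hpf, 4 DrRyu libraries again had no count, and the highest had 4.93 CPM.

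The tectorin and otogelin genes had few counts. *tecta* and *tectb* encode α-tectorin and β-tectorin, fibrous proteins of the tectorial membrane in the mouse, and α-tectorin also holds the otoliths in place in zebrafish. *tectb* was at 0 in 6 of 8 plain libraries at 6 ss, in 1 of 4 at 15 ss, and in 6 of 8 at 20 ss, while all 8 libraries had counts at each of 24, 48, 72, and 96 hpf. The 24 hpf libraries were the deeper ones, with totals of 5919077 to 9809464 counts against 1930237 to 3161085 at 20 ss, and the step between these stages did not pass (log2 fold change 1.05 ± 0.68; edgeR, adjusted p = 0.302). Plain libraries of 48 hpf had 1.20 to 6.15 CPM of *tectb* (median 4.39) and those of 24 hpf 0.805 to 1.69 CPM (median 1.33), so that 1 library of 48 hpf lay inside the earlier range. *tectb* was higher at 48 hpf, with 4.16 ± 1.49 CPM, than at 24 hpf, with 1.20 ± 0.317 CPM, at a log2 fold change of 1.84 ± 0.58 (edgeR, adjusted p = 0.00695).

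DrRyu libraries add 32 hpf between these stages. *tectb* averaged 0.257 ± 0.559, 0.543 ± 1.04, 3.78 ± 2.51, 8.13 ± 6.09, and 8.40 ± 3.15 CPM at 20 ss and at 24, 32, 48, and 72 hpf. At 32 hpf all 8 libraries had counts, from 0.176 to 7.69 CPM (median 4.13), and at 24 hpf 6 of 8 had none. The log2 fold change at 32 hpf against 24 hpf was 2.75 ± 0.86, with an adjusted p of 0.0673 in edgeR, of 0.0194 in DESeq2, and of 0.0257 in the exact permutation test. At 96 hpf *tectb* was 0 to 4.54 CPM in S libraries (median 3.10) and 1.74 to 9.85 CPM in plain libraries (median 4.90), without passing the test (log2 fold change -0.93 ± 0.59; edgeR, adjusted p = 0.443).

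*otog* encodes otogelin, which ties otoliths to the sensory epithelium in zebrafish. Single counts were all that was seen of it at 6 ss and 15 ss in plain libraries, 1 count in 8 libraries and 1 count in 4. At 20 ss 6 of 8 plain libraries had counts, with levels of 0.468 to 3.06 CPM. *otog* had 23 counts at 20 ss and 1 at 15 ss, a ratio of 16.4 per effective library size with a 95% exact interval of 2.66 to 675 that covers counting error only. The step passed in edgeR (adjusted p = 0.0407), but lost the call when 15 ss library 1, 3, or 4 was left out (adjusted p of 0.113, 0.108, and 0.146) or with both sets in one fit (0.179). In S libraries *otog* was at 0 in 7 of 8 libraries at 6 ss and in 6 of 8 at 10 ss, whereas the 5 libraries of 15 ss had 0.305, 0.324, 1.11, 1.45, and 2.56 CPM. The S step from 10 ss to 15 ss had a log2 fold change of 2.62 ± 0.93, with an adjusted p of 0.0880 in edgeR and of 0.0230 in the exact permutation test. Afterwards *otog* averaged between 1.17 and 3.19 CPM in every plain and DrRyu group from 24 hpf on. Only B1, B2, and B4 of the DrRyu libraries of 24 hpf had *otog* counts, of 10, 10, and 12. In S libraries of 96 hpf only 3, 6, and 7 had any, of 9, 9, and 7.

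*tecta* and *otogl*, which encodes an otogelin-like protein of the acellular membranes of the mammalian inner ear, passed the edgeR test in none of the comparisons. Of all genes tested, 61.6% were called at 96 hpf against 6 ss in plain libraries. *tecta* averaged 0.507 to 3.73 CPM over the 16 groups, with 29 libraries at 0. *otogl* averaged 0.403 to 2.42 CPM, with 18 libraries at 0. At 96 hpf *tecta* averaged 1.69 ± 1.36 CPM and at 6 ss 0.645 ± 0.991 CPM in plain libraries (log2 fold change 1.43 ± 0.77; edgeR, adjusted p = 0.0984), a difference that reached an adjusted p of 0.0426 in DESeq2 and of 0.0268 in edgeR without 6 ss library 1. *otogl* at 96 hpf averaged 1.02 ± 0.822 CPM, against 1.77 ± 2.01 CPM at 6 ss (log2 fold change -0.69 ± 0.70; edgeR, adjusted p = 0.399). In DESeq2 *otogl* was called higher at 48 hpf than at 24 hpf (log2 fold change 1.41, adjusted p = 0.0392). Each of these genes had a median of 4 counts a library.

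**Figure D2:**
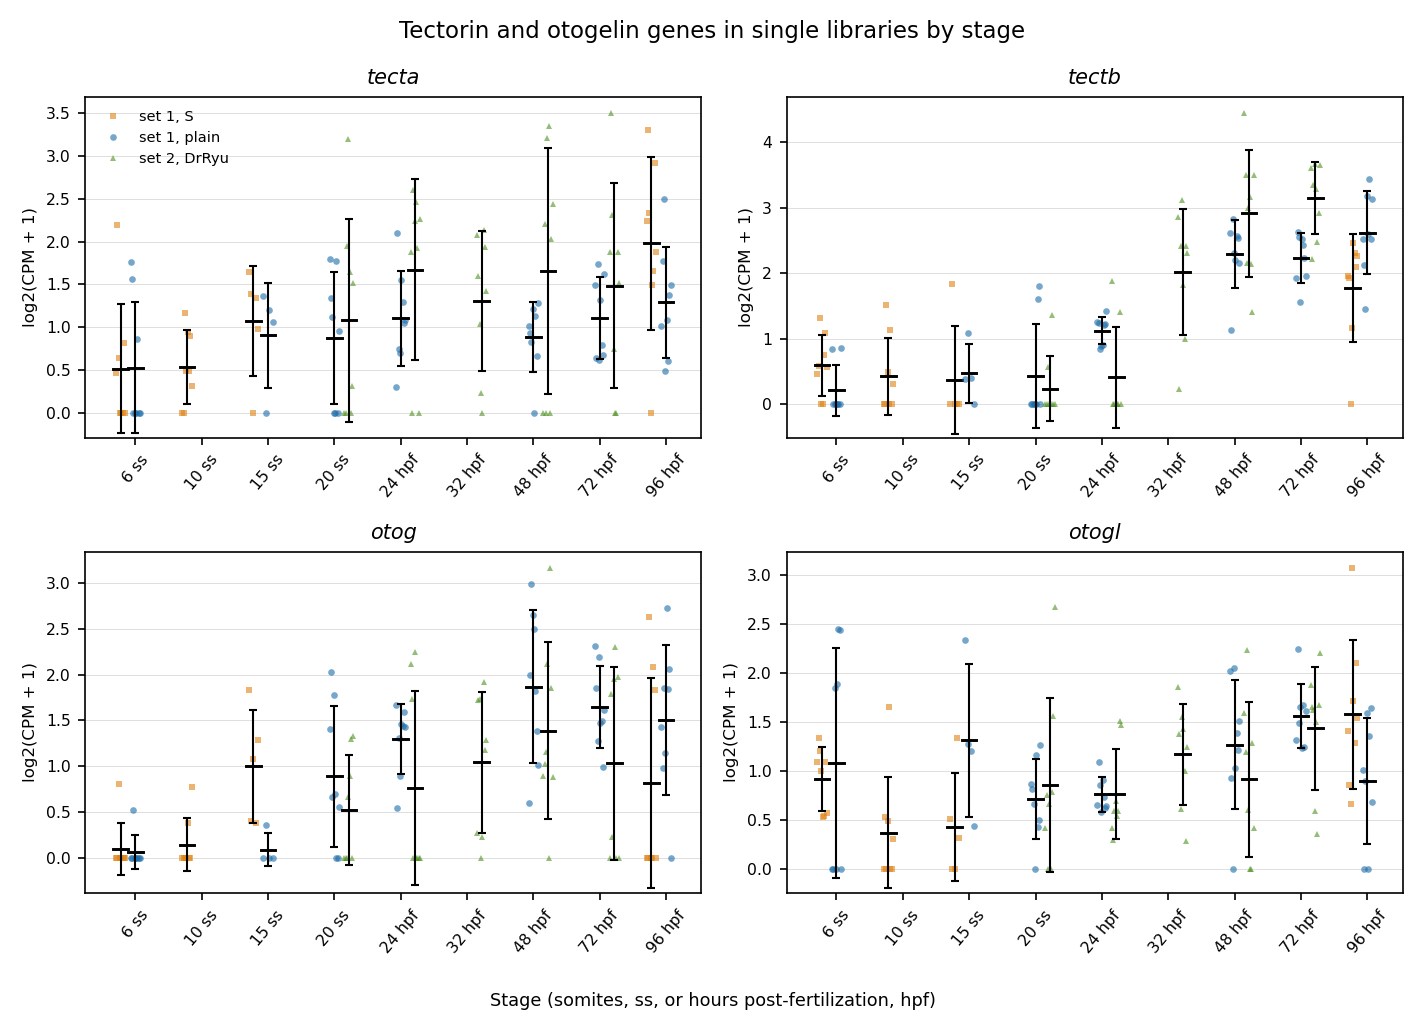
Levels of *tecta*, *tectb*, *otog*, and *otogl* in single libraries, as log2(CPM + 1), against stage, with symbols for S, plain, and DrRyu libraries and bars for the mean and SD of each group on that scale. *tectb* was counted in all 8 DrRyu libraries at 32 hpf and was at 0 in 6 of 8 at 24 hpf, and most libraries of 6 ss and 10 ss had no *otog* count.

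Of the 3 hair cell genes, edgeR called *pvalb9* and *otofb* in at least 1 comparison and *myo7aa* in none. In plain libraries, 96 hpf against 6 ss alone called 61.6% of all genes tested, so a call in at least 1 comparison is common. *pvalb9* encodes a parvalbumin, a small protein that buffers calcium and is known from zebrafish hair cells. It had counts in every library, 255358 in all. In plain libraries *pvalb9* was 145 to 188 CPM at 6 ss (median 171), 178, 217, 230, and 248 CPM in the 4 libraries of 15 ss, and 258 to 335 CPM at 20 ss (median 316). It reached 569 to 690 CPM at 24 hpf (median 626), was 197 to 289 CPM at 48 hpf (median 255), 168 to 229 CPM at 72 hpf (median 208), and 173 to 230 CPM at 96 hpf (median 193). The 24 hpf libraries stood apart from those of every other plain stage. Of all genes tested, 8.86% did not overlap between 20 ss and 24 hpf, and 16.9% between 24 and 48 hpf.

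*pvalb9* was higher at 24 hpf, with 626 ± 36.2 CPM, than at 20 ss, with 306 ± 29.7 CPM (log2 fold change 1.03 ± 0.09; edgeR, adjusted p = 2.04e-18). It was lower at 48 hpf, with 247 ± 33.3 CPM, than at 24 hpf (log2 fold change -1.27 ± 0.09; edgeR, adjusted p = 3.04e-24). The smaller rise at 20 ss against 15 ss, of 0.54 ± 0.11 on the log2 scale, also passed (edgeR, adjusted p = 2.17e-04), as did that at 15 ss against 6 ss, of 0.36 ± 0.11 (edgeR, adjusted p = 0.0334). The last of these lost its call when 15 ss library 1, 3, or 4 was left out (adjusted p of 0.105, 0.0833, and 0.158), with DESeq2 size factors (0.0861), and in DESeq2 (0.0679). With both sets in one fit, neither rise before 24 hpf passed, with adjusted p of 0.231 for 15 ss and 0.0799 for 20 ss.

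In DrRyu libraries *pvalb9* averaged 605 ± 162, 1255 ± 348, 777 ± 177, 661 ± 221, and 446 ± 63.0 CPM at 20 ss and at 24, 32, 48, and 72 hpf. Each mean at a shared stage lay above that of plain libraries, but the sets differ in year and naming, and their levels at a stage were not tested against each other. At 24 hpf *pvalb9* lay between 655 and 1648 CPM (median 1212) and at 20 ss between 405 and 832 CPM (median 604), a log2 fold change of 1.07 ± 0.18 (edgeR, adjusted p = 5.55e-06). It was lower at 32 hpf than at 24 hpf (log2 fold change -0.65 ± 0.18; edgeR, adjusted p = 0.0235) and at 72 hpf than at 48 hpf (-0.56 ± 0.18; edgeR, adjusted p = 0.0396). The last call ended with DESeq2, its size factors, no TMM, or no filter (adjusted p of 0.0555 to 0.0878), and its exact permutation p was 0.0309, or 0.118 after adjustment. Fast muscle makes other parvalbumins, and its part in the level of *pvalb9* was not tested. The summed level of *pvalb1*, *pvalb2*, *pvalb3*, *pvalb4*, *mylpfa*, and *tnnt3b* averaged 300 CPM at 20 ss, 3404 CPM at 24 hpf, and 34116 CPM at 48 hpf in plain libraries.

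*otofb* encodes an otoferlin, the calcium sensor of vesicle release at the hair cell ribbon synapse. In plain libraries it averaged 4.91 ± 2.61, 4.97 ± 2.02, and 4.94 ± 2.40 CPM at 6, 15, and 20 ss, and 7.28 ± 2.07, 9.69 ± 1.02, 15.6 ± 3.87, and 18.1 ± 4.56 CPM at 24, 48, 72, and 96 hpf. No single step passed. The largest, at 72 hpf against 48 hpf, had libraries of 10.0 to 22.5 CPM (median 14.9) against 8.17 to 10.9 CPM (median 9.70), a log2 fold change of 0.69 ± 0.28 (edgeR, adjusted p = 0.0814), and an adjusted p of 0.00731 in the exact permutation test. This step passed in edgeR without TMM (adjusted p = 0.0239) and without S libraries (0.0499), and in DESeq2 (0.0439). In DrRyu libraries *otofb* averaged 14.8 ± 7.72, 18.1 ± 10.9, 14.3 ± 4.38, 18.1 ± 5.73, and 24.9 ± 9.84 CPM at 20 ss and at 24, 32, 48, and 72 hpf, and at 20 ss it spread from 4.85 to 25.1 CPM.

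*myo7aa* encodes the unconventional myosin VIIA of the hair bundle, without which zebrafish lose hearing and balance. It was sparse, with a median of 5 counts a library, 30 libraries at 0, and no call in any comparison. Its means ran from 0.0449 CPM in plain libraries of 15 ss, where 3 of 4 libraries were at 0, to 5.90 ± 4.35 CPM in DrRyu libraries of 48 hpf. At 96 hpf plain libraries averaged 2.22 ± 2.37 CPM and at 6 ss 0.943 ± 0.854 CPM (log2 fold change 1.25 ± 0.80; edgeR, adjusted p = 0.167).

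**Figure D3:**
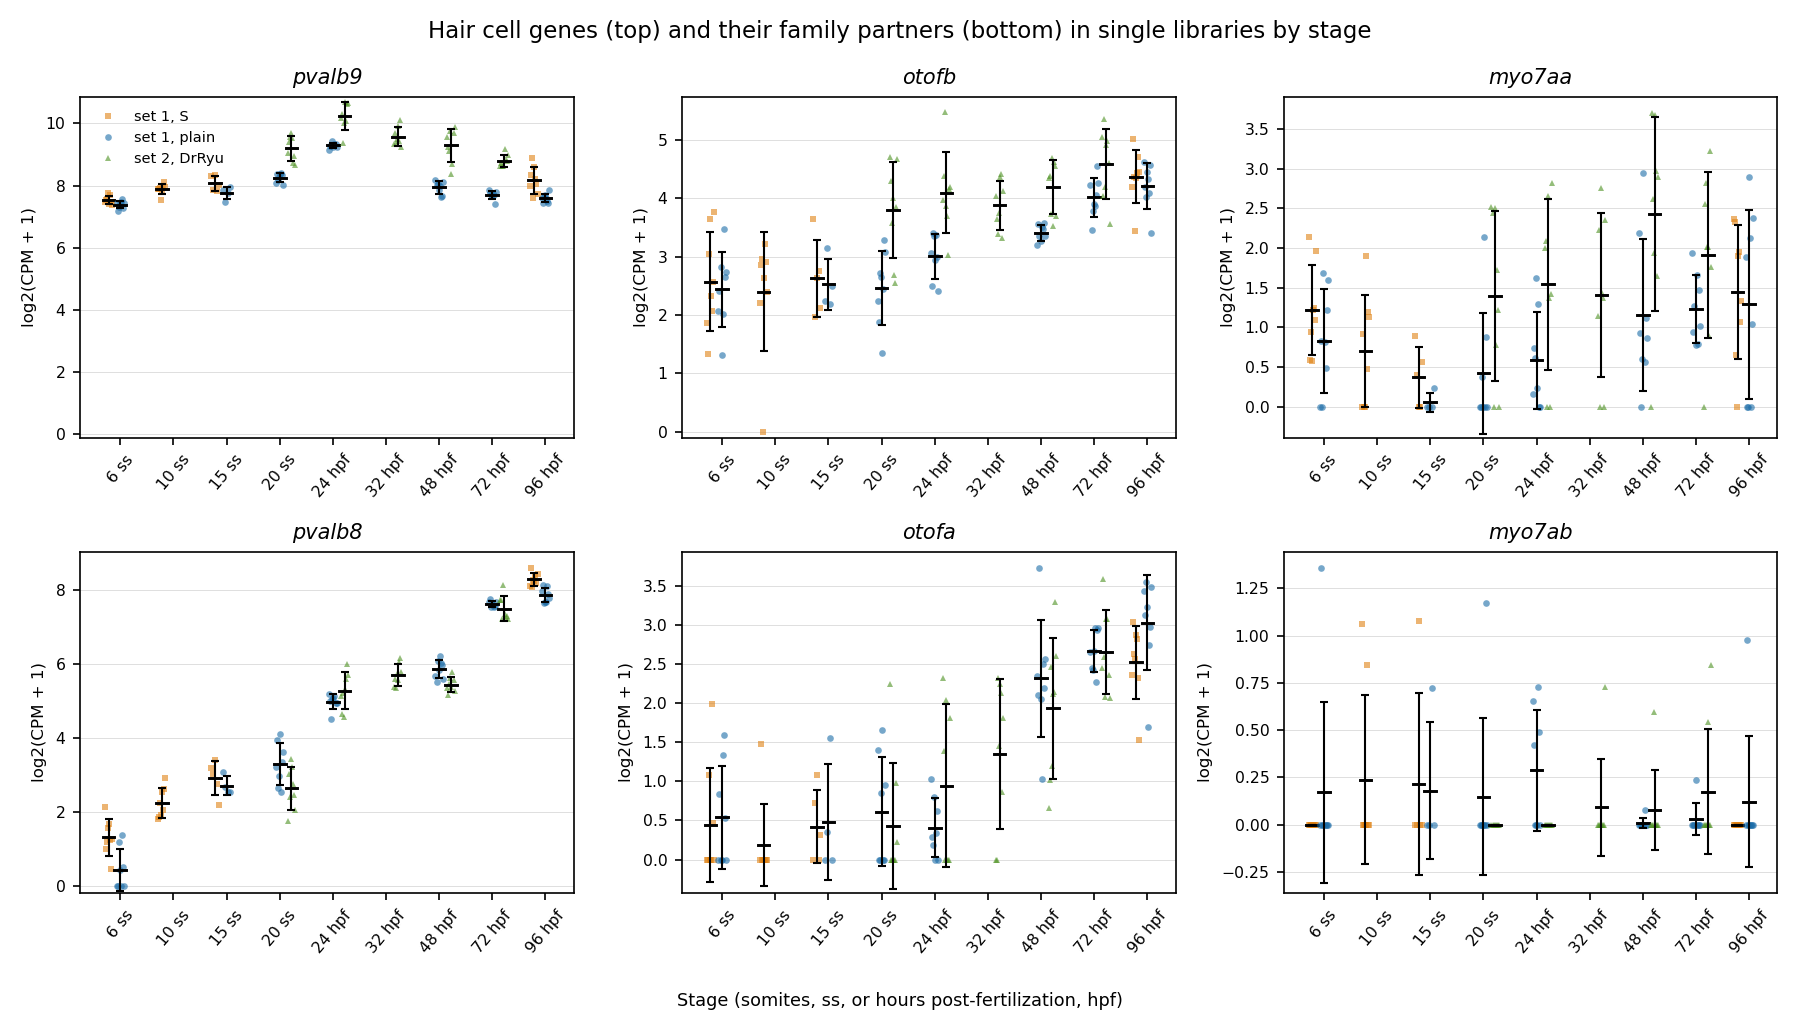
Levels of *pvalb9*, *otofb*, and *myo7aa* (top) and of their family partners *pvalb8*, *otofa*, and *myo7ab* (bottom) in single libraries, as log2(CPM + 1), against stage, with symbols for S, plain, and DrRyu libraries and bars for the mean and SD of each group on that scale. *pvalb9* peaked at 24 hpf in plain and DrRyu libraries, while *pvalb8* went up by stage to 232 CPM in plain libraries at 96 hpf.

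Each of these hair cell genes has a family partner in the table. *pvalb8*, a second hair cell parvalbumin of zebrafish, averaged 0.467 ± 0.645, 5.64 ± 1.26, 9.57 ± 4.20, 30.9 ± 4.10, 57.8 ± 9.91, 195 ± 10.3, and 232 ± 32.7 CPM at 6, 15, and 20 ss and 24, 48, 72, and 96 hpf in plain libraries. At 96 hpf it was higher than at 6 ss by a log2 fold change of 8.96 ± 0.24 (edgeR, adjusted p = 2.50e-63), or 9.56 ± 0.26 without 6 ss library 6 (adjusted p = 1.94e-61). *otofa*, the other otoferlin gene, averaged 4.63 ± 3.32 CPM at 48 hpf and 0.367 ± 0.372 CPM at 24 hpf in plain libraries, and its step at 48 hpf passed (log2 fold change 3.51 ± 0.62; edgeR, adjusted p = 1.18e-06). *otofa* had 1.41 ± 1.64, 2.03 ± 1.63, 3.51 ± 2.71, and 5.73 ± 2.69 CPM at 24, 32, 48, and 72 hpf in DrRyu libraries. None of the steps between these stages passed (edgeR, adjusted p of 0.906, 0.748, and 0.804). The change at 72 hpf against 20 ss did (log2 fold change 3.30 ± 1.05; edgeR, adjusted p = 0.00988). *myo7ab* had 59 counts over both sets and was at 0 in 104 libraries. Reads from paralogs that are close in their 3′ ends may be split between them, which was not tested.

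The counts of called members were set beside the share of all genes called in the same comparison. From 6 ss to 96 hpf in plain libraries, 5 of the 10 genes were higher and 2 lower at 96 hpf (edgeR, adjusted p under 0.05), while 61.6% of the 20993 genes tested were called in either direction. The 10 genes had a median log2 fold change of 1.34 and all genes one of 0.31. The median of the 10 lay between *myo7aa* (1.25) and *tecta* (1.43), neither of them called. *tectb* was higher by 4.65 ± 0.79 (edgeR, adjusted p = 1.35e-07), *otofb* by 1.96 ± 0.31 (adjusted p = 3.19e-08), and *pvalb9* by 0.28 ± 0.09 (adjusted p = 0.00753) on the log2 scale. The log2 fold change of *pvalb9* was no larger than the median over all genes, and it was 0.06 ± 0.09 without TMM (adjusted p = 0.582). *otomp* had 52 counts at 96 hpf and 2 at 6 ss, a ratio of 28.3 (95% exact interval 7.45 to 240), and *otog* 40 and 1, a ratio of 43.6 (7.38 to 1763), and both passed in edgeR (adjusted p of 3.27e-05 and 1.35e-05). Lower at 96 hpf were *oc90*, by -4.95 ± 0.35 (edgeR, adjusted p = 2.42e-25), and *stm*, by -1.02 ± 0.11 (adjusted p = 2.40e-15). Single libraries moved some of these sizes, and the log2 fold change of *oc90* was -6.34 ± 0.42 without 96 hpf library 4 (edgeR, adjusted p = 9.49e-28). At 6 ss, libraries 1 and 8 held all 4 *tectb* counts, 2 each, and library 3 held every *otomp* and *otog* count, and the calls of these genes stayed when any of them was left out (edgeR, adjusted p of at most 1.16e-04). The libraries of the 2 stages did not overlap for *oc90*, *stm*, and *tectb*, as for 29.5% of all genes.

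Step by step in plain libraries, the members called are given with the shares of all genes called. At 15 ss against 6 ss, 1 was higher and 1 lower, with 6.73% of all genes called (4.54% higher and 2.19% lower). At 20 ss against 15 ss 3 were higher, with 10.1% of all genes called (5.74% higher and 4.34% lower). At 24 hpf against 20 ss 1 was higher and 2 lower (21.1% of all genes called, 14.5% higher and 6.62% lower), at 48 hpf against 24 hpf 1 higher and 2 lower (35.7%, 18.7% higher and 17.0% lower), and at 72 hpf against 48 hpf 1 higher and 1 lower (15.6%, 8.85% higher and 6.77% lower). At 96 hpf against 72 hpf none was called by edgeR, with 13.8% of all genes called (4.44% higher and 9.31% lower). There 1 member, *stm*, had an unadjusted p under 0.05, and DESeq2 called 1.

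In DrRyu libraries, 72 hpf against 20 ss called 3 members higher and 2 lower, with 37.9% of 18497 genes called (21.7% higher and 16.1% lower). The members' median log2 fold change was 0.70 and that of all genes 0.16. The members' median lay between *otogl* (0.67) and *myo7aa* (0.72), neither of them called. *tectb* was higher, at 8.40 ± 3.15 against 0.257 ± 0.559 CPM (log2 fold change 4.79 ± 0.93; edgeR, adjusted p = 2.91e-05). Library B6 held 13 of the 14 *tectb* counts at 20 ss, so that the size of this difference depends on it. Without B6 the fitted log2 fold change was larger, 7.20 ± 1.13, against almost no counts at 20 ss, and the call stayed (edgeR, adjusted p = 5.24e-07). *otofb* was higher, at 24.9 ± 9.84 against 14.8 ± 7.72 CPM (0.82 ± 0.32; adjusted p = 0.0375). The call of *otofb* ended without TMM (adjusted p = 0.0792) with the replicate block (0.0528), and without library B6 of 20 ss (0.0901), and its exact permutation p was 0.0462, or 0.151 after adjustment. *otomp* was at least 19.7-fold higher, against the floor of 3 counts over the 8 libraries of 20 ss (edgeR, adjusted p = 0.00274), with 4 of 8 libraries of 72 hpf at 0 and an exact permutation p of 0.0769, or 0.209 after adjustment. Its mean at 72 hpf was 1.44 CPM, or 0.947 CPM without library B8. *oc90* was lower by -5.13 ± 0.63 (adjusted p = 1.15e-09) and *stm* by -1.20 ± 0.22 (adjusted p = 1.10e-05). Without library B8 of 72 hpf, the log2 fold change of *oc90* was -7.03 ± 0.70 (edgeR, adjusted p = 2.47e-12). The libraries of both stages did not overlap for *oc90*, *stm*, and *tectb*, as for 15.1% of all genes.

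Among the DrRyu steps, 24 hpf against 20 ss called 2 members higher and 1 lower (15.5% of all genes called, 9.84% higher and 5.61% lower). Then 1 member was lower at 32 hpf against 24 hpf (2.74%, 2.13% higher and 0.606% lower), 1 at 48 hpf against 32 hpf (8.1%, 3.35% higher and 4.75% lower), and 1 at 72 hpf against 48 hpf (6.24%, 2.9% higher and 3.34% lower). Among the S steps, 10 ss against 6 ss called 1 member higher, *pvalb9*, and 1 lower, *stm* (5.59%, 3.44% higher and 2.15% lower). *pvalb9* was 236 ± 25.2 CPM at 10 ss and 184 ± 17.5 CPM at 6 ss (log2 fold change 0.38 ± 0.09; edgeR, adjusted p = 0.00397, or 0.194 with both sets in one fit). At 15 ss against 10 ss edgeR called none (5.02% of all genes called, 3.42% higher and 1.61% lower), with 4 members at an unadjusted p under 0.05 and 1 called by DESeq2.

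**Figure D4:**
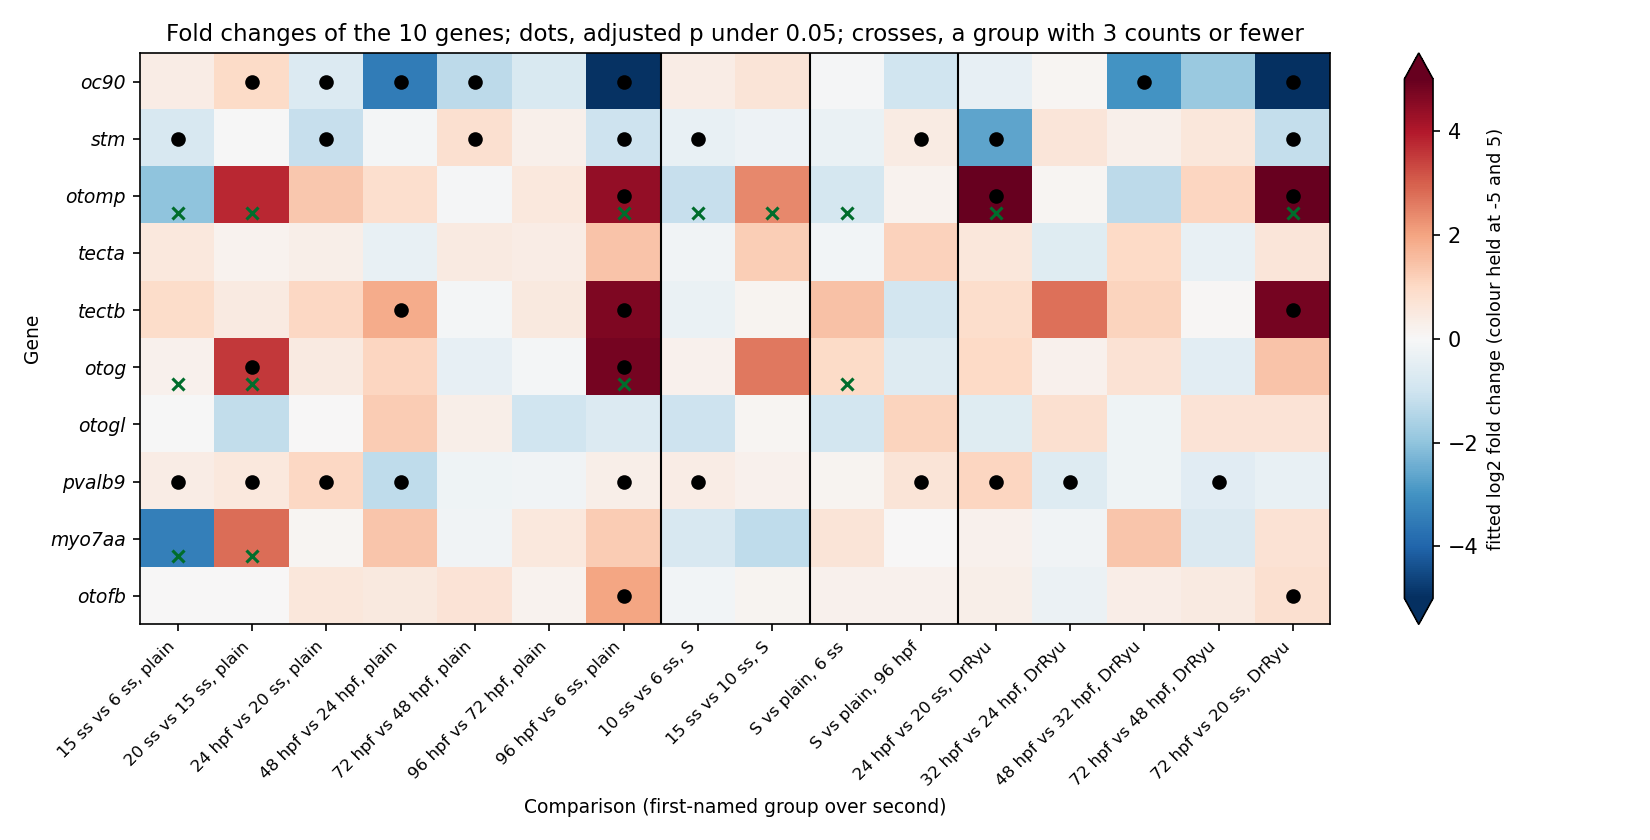
Fitted log2 fold changes of the 10 genes (rows) in 16 comparisons (columns), with the first-named group over the second, grouped by lines into plain stages, S stages, S against plain, and DrRyu stages. Dots mark an adjusted p under 0.05 in edgeR, crosses mark comparisons in which a group had 3 counts or fewer, where the fitted value is no bound, and the colour is held at -5 and 5. *oc90* was called lower in 48 hpf against 24 hpf (plain) and in 48 hpf against 32 hpf (DrRyu).

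S and plain libraries were also compared within a stage, at 6 ss and at 96 hpf. Both kinds exist at 15 ss too, but were not tested against each other there. At 15 ss *oc90* was 29.2 to 34.7 CPM in plain libraries and 40.5 to 51.8 CPM in S libraries. These ranges do not overlap, and the share of all genes without overlap between these groups was not determined. *stm* was 67.2 to 102 CPM in plain libraries of 15 ss and 64.8 to 88.0 CPM in S libraries. At 6 ss edgeR called none of the 10 (2.46% of all genes called, 1.41% higher and 1.05% lower). *stm* was the 1 member with an unadjusted p under 0.05, at 125 ± 24.1 CPM in S libraries and 154 ± 20.4 CPM in plain libraries (log2 fold change -0.32 ± 0.10; edgeR, adjusted p = 0.0767), and the 1 called by DESeq2 (adjusted p = 0.0258). At 96 hpf 2 members were higher in S libraries (4.6% of all genes called, 2.3% higher and 2.3% lower). *pvalb9* was 191 to 470 CPM in S libraries (median 279) and 173 to 230 CPM in plain libraries (median 193), a log2 fold change of 0.63 ± 0.09 (edgeR, adjusted p = 3.27e-07) with overlap between the groups. *stm* was 95.0 ± 14.5 CPM in S libraries and 72.3 ± 14.4 CPM in plain libraries (log2 fold change 0.40 ± 0.11; edgeR, adjusted p = 0.0139), a call that ended without TMM (adjusted p = 0.131) and with both sets in one fit (0.278). The used number is 1 in these S libraries and 5 in these plain libraries, so its part in the difference cannot be told apart from that of the S mark.

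The change from 20 ss to 72 hpf was compared between set 1 and set 2 by an interaction term over both sets. edgeR called none of the 10 genes, with 4.35% of 21638 genes called (2.42% higher and 1.93% lower). By the same edgeR test 2 had an unadjusted p under 0.05. These were *stm*, whose log2 change was higher in set 1 by 0.65 ± 0.22 (edgeR, adjusted p = 0.0685), and *otomp*, at -3.66 ± 1.34 (adjusted p = 0.0972), whose 20 ss DrRyu libraries had no count. *stm* passed with DESeq2 (adjusted p = 0.0301), with its size factors in edgeR (0.0395), and with no filter beyond 1 count (0.0468). *oc90* differed between the sets by -0.56 ± 0.64 and *pvalb9* by -0.17 ± 0.19, with adjusted p of 0.755 and 0.731.

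Other genes of the ear were taken from lists of textbook roles. Of 29 further hair cell genes, *otofa* among them, 28 were in the table and 24 were tested in set 1. At 96 hpf against 6 ss 14 were higher, 2 were lower, and 8 did not pass, with 36.6% of all genes called higher and 25.1% lower. Their median log2 fold change was 2.98, or 2.29 with the 6 genes that had no count in one of the groups at their bound and 1 gene under the floor in both left out. Some calls rested on few counts, as 1 of the 14 genes called higher had 5 counts at 96 hpf and none at 6 ss. That gene was at least 1.20-fold higher against a floor of 3 counts over the group (edgeR, adjusted p = 0.0496). *tmie*, a part of the transduction channel complex, had 74 counts in the 8 libraries of 96 hpf and none in those of 6 ss, at least 27.6-fold higher against the floor of 3 counts over the group. *s100t*, an S100 calcium-binding protein, averaged 71.1 ± 18.9 CPM at 96 hpf and 1.45 ± 1.24 CPM at 6 ss (log2 fold change 5.69 ± 0.31; edgeR, adjusted p = 1.33e-34). *lhfpl5b* fell to 18.8 ± 5.31 CPM at 96 hpf, against 26.5 ± 6.38 CPM at 6 ss (log2 fold change -0.45 ± 0.19; edgeR, adjusted p = 0.0377), and *gfi1ab*, a zinc finger factor, had 2 counts at 96 hpf and 29 at 6 ss. In DrRyu libraries 6 of the 19 genes tested were higher at 72 hpf than at 20 ss, none was lower, and 13 did not pass, with 21.7% of all genes called higher and 16.1% lower. The defining factor *pou4f3* had 4 counts over both sets.

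**Figure D5:**
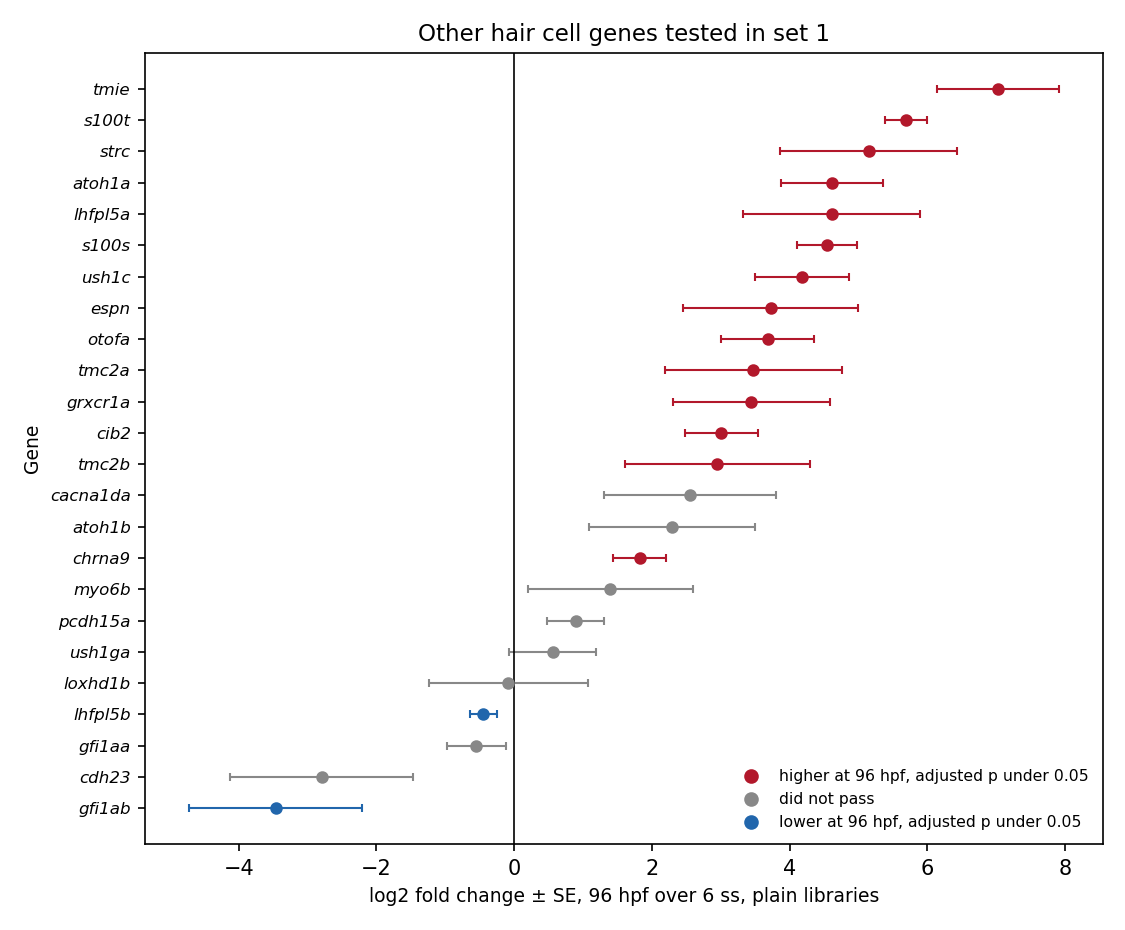
Log2 fold changes (SE bars) of the 24 further hair cell genes tested in set 1, at 96 hpf over 6 ss in plain libraries; red marks genes higher, blue genes lower, and grey genes that did not pass at an adjusted p under 0.05 in edgeR. *tmie* and *s100t* had the highest fitted values, 7.03 and 5.69, and *gfi1ab* the lowest, -3.46, with no count of *tmie* at 6 ss.

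Of 20 factors that specify the otic placode and vesicle, 19 were tested in set 1, and 4 were higher, 10 lower, and 5 did not pass at 96 hpf against 6 ss, with 36.6% of all genes called higher and 25.1% lower. *foxi1*, a forkhead factor needed for the otic placode, fell to 1.29 ± 1.56 CPM at 96 hpf, against 26.8 ± 4.95 CPM at 6 ss (log2 fold change -4.17 ± 0.34; edgeR, adjusted p = 2.01e-21). *fgf3*, an inducer of the placode, fell to 4 counts in 8 libraries, against 128 counts (log2 fold change -4.63 ± 0.79; adjusted p = 1.97e-07). *neurod1*, a factor of sensory neurons and of many other neurons, was higher at 60.1 ± 15.1 CPM, against 3.77 ± 2.19 CPM (4.04 ± 0.23; adjusted p = 1.34e-32), and *hmx2*, a homeobox factor of ear and lateral line, at 6.10 ± 3.43 CPM, against 0.268 ± 0.515 CPM (4.49 ± 0.70; adjusted p = 1.12e-08). In DrRyu libraries, at 72 hpf against 20 ss, 3 of 18 were higher, 8 lower, and 7 did not pass, with 21.7% of all genes called higher and 16.1% lower.

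Of the other 8 genes listed for the otolith and its membrane, 5 were in the table and 3 were tested. *sparc*, a calcium-binding matrix protein of otoliths that many other tissues make, averaged 997 ± 56.9 CPM at 96 hpf and 26.4 ± 5.48 CPM at 6 ss (log2 fold change 5.30 ± 0.11; edgeR, adjusted p = 2.76e-75), while *mia* and *cdh11* did not pass. In DrRyu libraries 2 of the 3 were higher at 72 hpf than at 20 ss and 1 did not pass, with 21.7% of all genes called higher and 16.1% lower. *otol1a*, the otolith collagen, had 30 counts over both sets. Another list held 7 genes known from the lateral line, the other tissue with hair cells, of which *hmx2* and *hmx3a* are also among the otic factors. In set 1, 3 were higher, 2 lower, and 2 did not pass, and in DrRyu libraries 1 was higher and 6 did not pass. Of all genes, 36.6% were called higher and 25.1% lower in set 1, and 21.7% higher and 16.1% lower in DrRyu libraries. The summed level of the 7 genes averaged 146 to 190 CPM in the 7 plain groups. It was 175 CPM already at 6 ss, and the part of the lateral line in this sum was not tested. *prox1a* was higher at 3.78 ± 1.74 CPM, against 0.304 ± 0.699 CPM (log2 fold change 3.57 ± 0.70; edgeR, adjusted p = 4.36e-06), and *cxcr4b*, a receptor of the migrating primordium, was lower at 4.22 ± 2.83 CPM, against 11.9 ± 3.84 CPM (-1.37 ± 0.30; adjusted p = 4.73e-05). All 6 fast muscle genes and all 7 photoreceptor genes were higher at 96 hpf than at 6 ss in plain libraries, with 36.6% of all genes called higher. They were also all higher at 72 hpf than at 20 ss in DrRyu libraries, with 21.7% of all genes called higher. The part of the ear and of these other tissues in the levels of the 10 genes was not tested.

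The likeness of courses was described by Pearson's r of log2(CPM + 1) over the 16 group means, which share libraries, depth, and stages and carry no p. The genes named as nearest depend on the groups used, since 2 of the 30 stayed among the nearest 3 without DrRyu groups and 11 without S groups. Between members, r was -0.86 for *oc90* and *tectb*, 0.84 for *tecta* and *otofb*, 0.81 for *myo7aa* and *otofb*, and 0.10 for *oc90* and *pvalb9*. Groups of both sets enter these values, and *otofb* averaged more in DrRyu than in plain libraries at every shared stage. No r between members was computed without DrRyu groups. Among the 18402 genes ranked, the nearest courses to *oc90* were those of *pola2* (r = 0.98), *zbtb16a* (0.98), and *fam117ab* (0.98). Nearest to *stm* were *itm2cb* (0.89), *mpp1* (0.89), and *itpka* (0.88), and to *pvalb9* *zgc:158403* (0.96), *dbi* (0.95), and *BOLA2* (0.95). *tectb* was nearest to *nr4a2a* (0.97), *pcdh1g1* (0.97), and *gnrh3* (0.97), and *otofb* to *vav3b* (0.98), *uqcrb* (0.98), and *kctd8* (0.98). The other members were nearest to *si:ch73-43g23.1* (*otomp*, 0.97), *si:dkey-265e15.2* (*tecta*, 0.93), *ecscr* (*otog*, 0.96), *si:dkey-8l13.5* (*otogl*, 0.84), and *chst15* (*myo7aa*, 0.92). No other member was among the 3 genes nearest to any of the 10.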

How the data were processed

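The libraries of whole zebrafish were Lasy-Seq 3′ RNA-Seq libraries. The authors used fastp (0.21.0), BWA (0.7.17-r1188), Salmon, and the GRCz11 genome build, as the submitters' processing notes list. A table of estimated counts, by gene symbol and not normalized, was deposited by the authors. The 2 values that were not whole were rounded. Tags at the 3′ end do not give levels per length, so levels were compared between samples and not between genes.

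Stages were compared within one kind of library by edgeR (4.0.16, R 4.3.3, limma 3.58.1), quasi-likelihood F-test, TMM, genes counted in 8 or more libraries of the fit (minimum count 1), and Benjamini-Hochberg adjustment over all genes (call: adjusted p under 0.05). Set 1 was fitted on 20993 genes, set 2 on 18497, and the interaction on 21638. Levels are CPM on TMM-scaled library sizes over both sets, with a pseudocount of 1 on the log2 scale. The exact permutation test, two-sided, used log2(CPM + 1), and its smallest possible p was 1.55e-04 for 8 against 8 libraries and 0.00202 for 4 against 8. Folds against groups without counts used a floor of 3 counts over the group. The fits were tested on simulated data. Alternatives were DESeq2 (1.42.0), other filters and scalings, other libraries in the fit, and a replicate block. Python (3.11.15), numpy (2.4.6), pandas (2.3.3), scipy (1.17.1), and matplotlib (3.10.9) were used for levels and plots.

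Named genes were the 10 members, the partners *otofa*, *myo7ab*, and *pvalb8*, the 3 genes of most similar course for each member, and, of each list, the 2 called genes with the largest rise and the 2 with the largest fall at 96 hpf against 6 ss. Beyond this rule, *pou4f3*, *otol1a*, *mia*, *cdh11*, and the stage check genes were named after their values were seen. Lists were taken from textbook roles. The members and the lists were chosen with earlier results of these data known.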

Additional observations from a re-analysis of the deposited data

Results flagged for a closer look

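In 157 combinations of gene and group with 4 to 10 libraries, the highest or lowest library was set against the rest of its group on the log2(CPM + 1) scale by Dixon's criterion, and 19 stood apart. Chance gives about 1 in 20 groups where values are normally distributed, which sparse counts are not. Of the 19, 16 were in groups with a mean under 5 CPM, and in 8 no other library of the group had a count, so that the criterion was met by construction.

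Among the matrix genes, *oc90* reached 2.205 (9 counts) in plain library 4 of 96 hpf and 2.2005 (27 counts) in DrRyu library B8 of 72 hpf, where the others had at most 0.902 and 0.984. *otomp* was 0.9019 (2 counts) in plain library 3 of 6 ss, 0.4613 (1 count) in S library 1 of 6 ss, and 0.89 (2 counts) in S library 1 of 15 ss, with no count in the other libraries of each group. *tecta* was 2.1882 in S library 2 of 6 ss. *tectb* was low, at 1.1372, in plain library 2 of 48 hpf, and high, at 1.8444, in S library 2 of 15 ss and, at 1.3652 (13 counts), in DrRyu library B6 of 20 ss. *otog* was 0.5203 in plain library 3 of 6 ss, 0.3589 in plain library 2 of 15 ss, and 0.803 in S library 3 of 6 ss, with no count elsewhere in these groups. *otogl* was 2.2394 in plain library 2 of 72 hpf and 1.649 in S library 5 of 10 ss.

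Among the hair cell genes, *pvalb9* was low in plain library 7 of 72 hpf, at 7.3992 where the others had 7.66 to 7.85, and in S library 4 of 10 ss, at 7.5362 where the others had 7.85 to 8.12. The same S library 4 of 10 ss had no *otofb* count, so a value of 0.0, where the others had 2.21 to 3.22. *myo7aa* was 0.2381 (1 count) in plain library 4 of 15 ss and 2.1355 (11 counts) in plain library 5 of 20 ss.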

How the results depend on the processing

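Of 35 member values that passed the threshold, with 352 alternative values, 326 kept their direction and their call, 26 kept their direction and lost the call, and 0 reversed. Counts of members called moved by more than 1.5 times, or to or away from 0, as follows. At 15 ss against 6 ss, 1 was called with DESeq2 size factors, in DESeq2, and with both sets in one fit, and 1 to 2 when each 15 ss library was left out in turn. At 20 ss against 15 ss, 0 were called with both sets in one fit and 2 to 3 with 15 ss libraries left out. At 72 hpf against 48 hpf in plain libraries, 4 were called in set 1 without S libraries. At 96 hpf against 72 hpf, 1 was called with filterByExpr, without TMM, with DESeq2 size factors, in DESeq2, and without S libraries. With both sets in one fit 0 were called at S 10 ss against 6 ss, 1 at S against plain at 96 hpf (1 also without TMM), and 3 each at DrRyu 32 against 24 hpf (2 in DESeq2) and 72 against 48 hpf (0 with no filter, without TMM, and with DESeq2 size factors). DESeq2 called 1 at S 15 ss against 10 ss and 1 at S against plain at 6 ss. The interaction called 1 with no filter, with DESeq2 size factors, and in DESeq2. Smaller moves were those to 2 at 24 hpf against 20 ss with both sets in one fit, to 4 at 48 against 24 hpf without TMM (*stm*) and in DESeq2 (*otogl*), to 3 at 72 against 48 hpf with filterByExpr, without TMM, and in DESeq2, to 6 at 96 hpf against 6 ss without TMM and with both sets in one fit and 8 in DESeq2, and, at DrRyu 72 hpf against 20 ss, to 6 with filterByExpr and with both sets in one fit (*pvalb9*) and 4 with the replicate block. With single libraries left out, a choice made after seeing the data, 7 to 8 were called at 96 hpf against 6 ss (*tecta* gained without 6 ss library 1) and 5 to 6 at DrRyu 72 hpf against 20 ss (*pvalb9* gained without B6 of 20 ss or B8 of 72 hpf, and *otofb* lost without B6). Of the 30 genes of most similar course, 12 stayed under a pseudocount of 0.1, 17 under 10, 2 without DrRyu groups, and 11 without S groups. In these comparisons the cause was not tested.

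Deviations of same-numbered libraries from their group means had a median r of -0.0017 plain, -0.0027 S, and 0.0069 DrRyu. Single pairs of DrRyu libraries ran from -0.091 to 0.117. A median near 0 cannot exclude a shared origin of some pairs, which the labels do not give. With the replicate block, 1 member was called at S 15 ss against 10 ss (*otog*, adjusted p = 0.0454), and *otofb* at 72 hpf against 20 ss in DrRyu libraries lost its call (adjusted p = 0.0528). The block could not be fitted for S against plain, and the low-library alternative did not apply to set 2.

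Over all genes, with the reported fit named second, fitting both sets together gave 568 calls against 1413 at 15 ss against 6 ss, 895 against 2116 at 20 ss, 2915 against 4435 at 24 hpf, 1768 against 3278 at 72 hpf, and 1076 against 2887 at 96 hpf against 72 hpf. It gave 362 against 1174 and 383 against 1054 in the S steps, 116 against 517 and 273 against 965 for S against plain at 6 ss and 96 hpf, and 5858 against 2858, 2611 against 506, 4176 against 1498, and 3917 against 1155 in the DrRyu steps. DESeq2 called 802 against 517 for S against plain at 6 ss, and the interaction with the block 615 against 942. Without TMM, against the reported fit, the share of calls that were higher was 37.0% against 68.7% at 24 hpf against 20 ss, 37.9% against 52.3% at 48 hpf, 75.8% against 56.7% at 72 hpf, 51.6% against 32.3% at 96 hpf against 72 hpf (59.6% with DESeq2 size factors), 20.4% against 50.1% for S against plain at 96 hpf, 45.2% against 63.7% and 61.3% against 46.5% at DrRyu 24 and 72 hpf, and 35.5% against 55.6% in the interaction. With DESeq2 size factors it was 58.3% against 77.9% at DrRyu 32 hpf and 55.4% against 41.4% at 48 hpf. The median log2 fold change of all genes at 96 hpf against 6 ss was 0.31, 0.09 without TMM, and 0.48 with DESeq2 size factors. *otomp*, *tecta*, *otog*, *otogl*, and *myo7aa* had medians of 5 counts or fewer a library, which limits what could be detected.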
